A study of Mus musculus with 6 samples.

Results

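The interleukin-1 (IL-1) family cytokines and epidermal alarmins described here are 10 genes for cytokines, a receptor antagonist and secreted defence proteins of keratinocytes and other cells. They are Il1a, Il1b, Il18, Il33, Il1f6 and Il1f9 (agonist ligands), Il1rn (the IL-1 receptor antagonist), Tslp (thymic stromal lymphopoietin, a cytokine of barrier epithelia) and Lcn2 and Slpi (a siderophore-binding protein and an inhibitor of serine proteases, both released by inflamed epithelia). The list was drawn up by gene name, with earlier results of these data known, and each gene was read from its brightest array feature that carries a single gene symbol. Of the 10 listed genes 9 had such a feature, 1 each, among the 30142 genes measured. Slpi had none, because its feature carries several symbols, and it is not analysed here.

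The samples are cancer stem cells sorted from squamous cell carcinomas of mouse skin by the surface proteins Epcam, α6 integrin and CD34, without cells that carry lineage markers. The groups are 3 samples from wild-type mice (WT) and 3 from Sfrp1-/- mice (Sfrp1_KO), which lack a secreted antagonist of Wnt signalling. All mice of both groups received the mutagen DMBA on postnatal days 23, 25 and 27 and then the tumour promoter TPA 2 times a week for up to 30 to 40 weeks; the sources used here give no strain, sex or age at collection. RNA of each sample was hybridised to 1 Affymetrix MTA 1.0 array, and the comparison asks how expression in the sorted fraction differs without Sfrp1.

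IL-1α is held ready inside keratinocytes and acts when cells are broken, whereas IL-1β and IL-18 are made as inactive precursors that inflammasome proteases cut. Il1rn encodes a ligand that occupies the IL-1 receptor without signalling. Il1f6 and Il1f9 encode IL-36α and IL-36γ, agonists of the receptor encoded by Il1rl2 that are abundant in inflamed epidermis, and IL-33 and TSLP call in cells of type 2 immunity. TPA itself is an irritant that inflames mouse skin.

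Values are deposited log2 units, and differences are Sfrp1_KO minus WT with the standard error (SE) of limma, a linear model whose p-values were adjusted over all 30142 genes and called under 0.05. The array carries 23 probe sets for background signal, and the highest of these on an array, between 4.82 and 5.10, is taken as that array's background level. Sfrp1 was at 5.71, 5.48 and 6.07 in WT and at 5.09, 5.11 and 5.15 in Sfrp1_KO, so the groups did not overlap, but the difference of -0.64 (SE 0.15) did not pass (adjusted p = 0.0969). The deposited scale reaches beyond the 16 bits of a scanner, and a difference of 1 unit need not be a doubling.

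The keratinocyte markers differed between the 2 groups on these arrays, beside every gene described below. All 14 measured keratinocyte markers were above background on every WT array, and 7 to 9 of them on the Sfrp1_KO arrays. Their mean level lay between 9.77 and 10.85 in WT and between 5.42 and 5.50 in Sfrp1_KO. By limma 12 of the 14 fell, beside 1.45% of all genes. Krt5, the basal keratin, went from 17.39 ± 0.50 to 6.64 ± 0.30 (SD, n = 3). Of the sort markers, Epcam was at 4.99, 4.89 and 5.22 in Sfrp1_KO, at or around background, where it had been 7.44, 8.69 and 6.65 in WT. Itga6 (α6 integrin) also fell but stayed above background, from a mean of 9.51 to 7.62 (-1.89, SE 0.31, adjusted p = 0.0292). Cd34 was higher in Sfrp1_KO without overlap, at 9.26, 9.54 and 9.46 in WT and 11.23, 11.55 and 10.19 in Sfrp1_KO, and did not pass (1.57, SE 0.34, adjusted p = 0.0714). In bulk samples, fewer cells of a type and less RNA per cell cannot be told apart.

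The promoters of Il1f9, Il1rn and Il1a are shown first. Each of these genes was lower in Sfrp1_KO without overlap, though only Il1f9 passed limma. Tslp was lower without overlap too, but its promoter was not searched. Each window shown is the 300 bases from 250 before to 50 after a transcription start, 5′ to 3′ along the gene, from RefSeq assembly GRCm38.p6. Capitals mark matches on either strand to 4 motifs of inflammatory transcription factors: NF-kB (GGG and TTCC with any 3 bases between them), AP-1 (TGANTCA), C/EBP (TTGCNNAA) and the STAT site known as GAS (TTCNNNGAA). No 2 matches overlap in these windows. The Il1f9 window is chr2:24186226-24186525 on the plus strand, the first 2 of 3 Il1rn windows are chr2:24336610-24336909 and chr2:24345041-24345340 on the plus strand, and the Il1a window is chr2:129309923-129310222 on the minus strand.
Il1f9: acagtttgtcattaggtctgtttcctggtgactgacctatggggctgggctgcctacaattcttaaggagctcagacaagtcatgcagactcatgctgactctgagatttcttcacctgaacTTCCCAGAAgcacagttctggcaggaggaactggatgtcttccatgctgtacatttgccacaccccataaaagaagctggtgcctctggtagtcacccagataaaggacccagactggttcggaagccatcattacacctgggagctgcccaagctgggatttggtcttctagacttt
Il1rn, first start: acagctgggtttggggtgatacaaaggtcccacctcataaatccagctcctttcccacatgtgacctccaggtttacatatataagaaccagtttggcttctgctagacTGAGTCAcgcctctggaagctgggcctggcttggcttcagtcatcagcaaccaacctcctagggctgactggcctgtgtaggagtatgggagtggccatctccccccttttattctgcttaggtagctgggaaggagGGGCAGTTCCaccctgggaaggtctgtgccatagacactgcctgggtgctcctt
Il1rn, second start: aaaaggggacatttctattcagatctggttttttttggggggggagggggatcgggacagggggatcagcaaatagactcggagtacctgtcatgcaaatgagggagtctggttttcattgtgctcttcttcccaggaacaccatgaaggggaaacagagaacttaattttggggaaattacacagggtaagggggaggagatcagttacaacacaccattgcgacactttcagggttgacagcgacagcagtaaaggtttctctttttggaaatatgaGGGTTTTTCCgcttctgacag
Il1a: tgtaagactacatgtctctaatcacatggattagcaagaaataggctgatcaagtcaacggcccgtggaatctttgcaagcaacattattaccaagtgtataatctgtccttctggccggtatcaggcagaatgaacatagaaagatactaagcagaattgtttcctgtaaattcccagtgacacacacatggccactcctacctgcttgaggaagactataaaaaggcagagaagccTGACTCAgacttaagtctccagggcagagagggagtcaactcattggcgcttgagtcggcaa

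The Il1f9 window held 1 GAS match and none to the other motifs. Il1rn held an AP-1 match and an NF-kB match at its first start and an NF-kB match at its second, and the third start overlaps the second and held the same NF-kB match. Il1a held 1 AP-1 match just before the start. Promoters of 8 of the 10 members were searched, all but those of Il1f6 and Tslp. Over these 8, NF-kB matched in 1 gene (Il1rn), AP-1 in 2 (Il1rn and Il1a), C/EBP in 3 (Il33, Lcn2 and Slpi) and GAS in 1 (Il1f9). Among all 32851 promoter windows of this length, 5.56% held the NF-kB motif, 7.81% AP-1, 10.8% C/EBP and 8.30% GAS. These shares are per window, whereas the member counts are per gene over 11 windows, so the 2 are not like for like. A match is a string of letters and not a measured binding site.

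Of the 9 measured members 1 fell (Il1f9), none rose and 8 did not pass, beside 1.45% of all genes that fell and 1.83% that rose. At an unadjusted limma p under 0.05 there were 4 lower and 0 higher of the 9, beside 4333 of all 30142 genes in either direction. The arrays of the genotypes did not overlap for 4 members (Il1f9, Il1rn, Il1a and Tslp), each lower in Sfrp1_KO, beside 10.8% of all genes that were lower without overlap, 9.1% that were higher and 19.9% in either direction. The median difference of the members was -0.30, where all genes had a median of -0.01. That median is the value of Lcn2, which was at or under background on every array, so it describes no measurable change. Setting genes at background to their bound could not move it. Il1f9, Il1rn, Il1a and Tslp were above background on all WT arrays, and the other 5 measured members were at or under it on every array. Of all genes, 54.5% were also at or under it on every array.

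**Figure D1:**
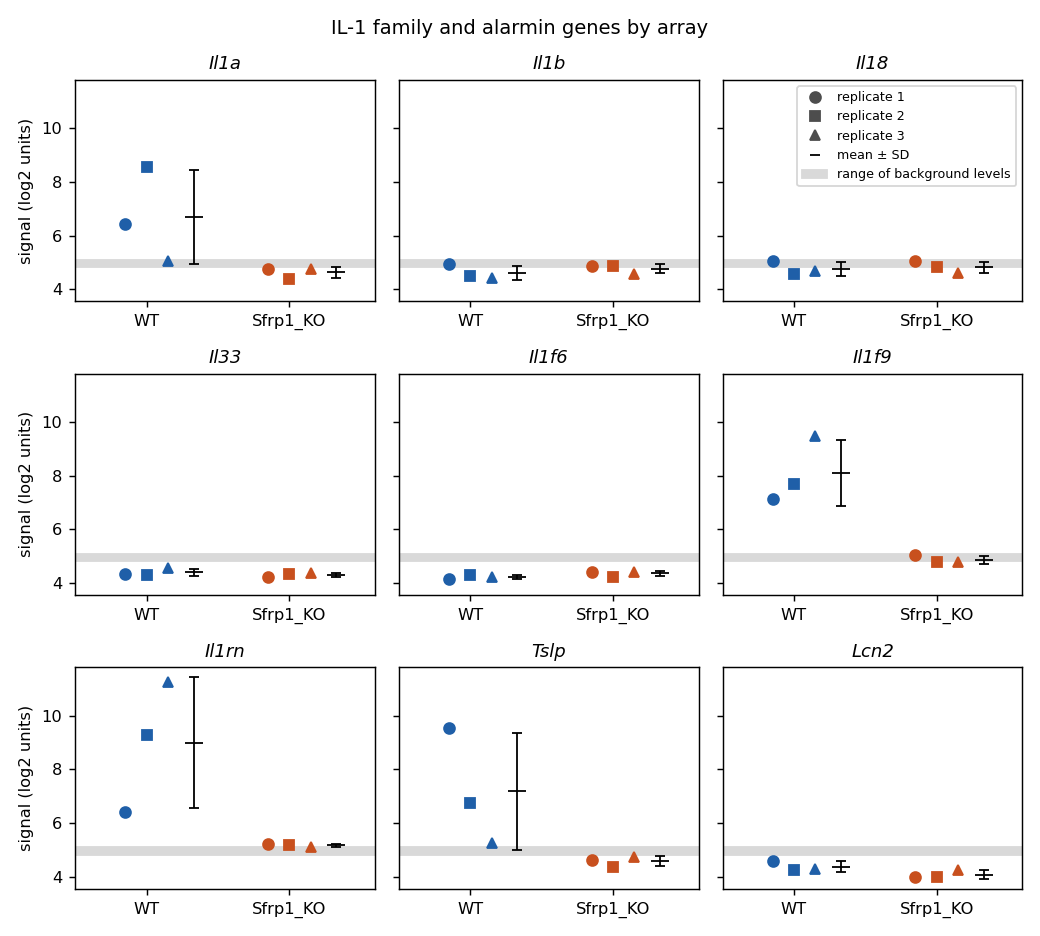
Signal in log2 units of each measured member on each array (blue WT, orange Sfrp1_KO, 1 symbol per replicate number), with mean ± SD (n = 3) in black and the range of array background levels in grey. Il1f9, Il1rn and Tslp stand above the grey band on the WT arrays, as does Il1a on 2 of them (5.06 on the third, within the band), and all 4 lie near or under it in Sfrp1_KO; the other 5 lie in or under it everywhere.

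Il1f9, the gene of IL-36γ, was at 7.14, 7.68 and 9.49 in WT and at 5.04, 4.78 and 4.80 in Sfrp1_KO. Every Sfrp1_KO array was under background, and the lowest WT array stood 2.09 above the highest Sfrp1_KO array. It fell by at least 3.03, the WT mean less the mean background level of the Sfrp1_KO arrays. Such a bound concerns the means only and makes no allowance for the spread of the arrays. The fitted difference was -3.23 (SE 0.57, 95% interval -4.59 to -1.86, adjusted p = 0.0375). By exact permutation of the 6 arrays, two-sided, p was 0.1, and no smaller p is possible with 3 in each group. The call was lost under a second quantile normalization (-3.27, adjusted p = 0.0519), without moderation of the variances (adjusted p = 0.211) and against a minimum difference of 1 log2 unit (adjusted p = 0.478). It also depended on single arrays: it was lost without WT replicate 2 (-3.44, adjusted p = 0.0762) and without Sfrp1_KO replicate 1, 2 or 3 (-3.31, -3.18 and -3.19, adjusted p = 0.120, 0.155 and 0.111), and kept without WT replicate 1 (-3.71) or 3 (-2.53).

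Il1rn, the gene of the receptor antagonist, was at 6.42, 9.27 and 11.26 in WT and at 5.21, 5.18 and 5.12 in Sfrp1_KO. The Sfrp1_KO arrays were within 0.10 of each other and just above background, while the WT arrays spanned 4.84 units. Its difference was -3.82 (SE 1.11, 95% interval -6.48 to -1.15), and it did not pass (adjusted p = 0.165). Without WT replicate 1, the lowest of the WT arrays, it passed (-5.10, adjusted p = 0.0183), and without WT replicate 3, the highest, it was -2.68 (adjusted p = 0.223). Of all genes, with those at background included, 0.0398% had a WT SD as large as its 2.43.

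Il1a, the gene of IL-1α, was at 6.44, 8.54 and 5.06 in WT and at 4.74, 4.39 and 4.76 in Sfrp1_KO. WT replicate 2 was high, and WT replicate 3 stood only 0.30 above the highest Sfrp1_KO array. The Sfrp1_KO arrays were all under background, so the difference is at least 1.61 by the means (fitted -2.05, SE 0.81). It did not pass with all arrays (adjusted p = 0.314) or without any 1 of them, when the fitted difference ranged from -2.87 without WT replicate 3 to -1.12 without WT replicate 2.

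Tslp was at 9.54, 6.76 and 5.26 in WT and at 4.63, 4.38 and 4.74 in Sfrp1_KO, where every array was under background. Here WT replicate 1 was the high array and WT replicate 3 the low one. The difference of at least 2.12 (fitted -2.60, SE 0.99) did not pass (adjusted p = 0.297), and it ranged from -3.57 without WT replicate 3 to -1.43 without WT replicate 1, in no case past the threshold.

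The 4 genes thus did not share 1 high WT array: Il1f9 and Il1rn were highest in replicate 3, Il1a in replicate 2 and Tslp in replicate 1. Their WT SDs of 1.23, 2.43, 1.75 and 2.17 are each exceeded or equalled by under 1% of all genes, at 0.614%, 0.0398%, 0.176% and 0.0730%. All genes here include the 54.5% at or under background on every array. Such a spread is not particular to the members: Krt16 had a WT SD of 2.39 (0.0464%) and Dcn 2.31 (0.0531%). The SDs of the 4 members in Sfrp1_KO were 0.15, 0.05, 0.21 and 0.18, at levels near background. Because the genes peaked on different arrays, the mean over the 9 members was alike among WT arrays, from 5.84 to 6.02, and lay between 4.55 and 4.69 in Sfrp1_KO.

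**Figure D2:**
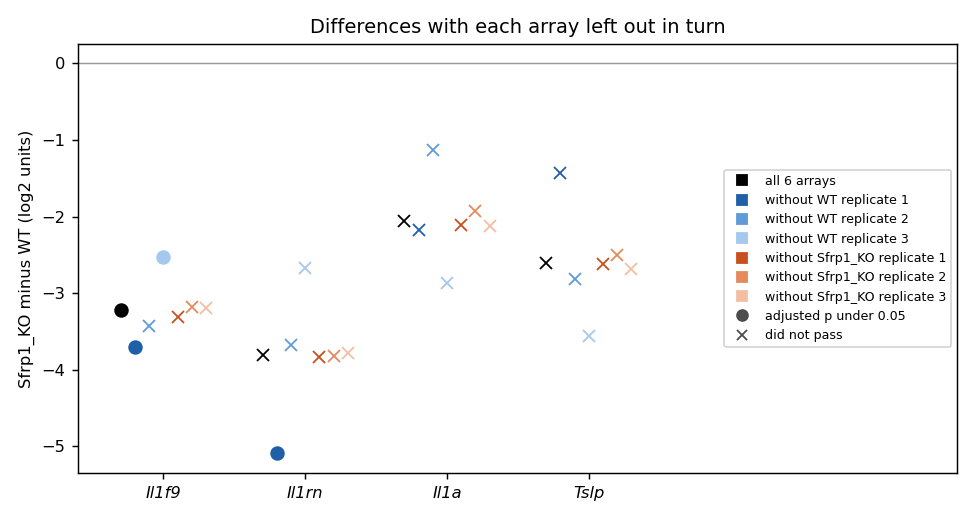
Difference Sfrp1_KO minus WT in log2 units for 4 members with all 6 arrays (black) and with each array left out in turn (colours); circles passed limma at adjusted p under 0.05 and crosses did not. Il1f9 passes with all arrays and without WT replicate 1 or 3, Il1rn passes only without WT replicate 1 (-5.10), and Il1a and Tslp pass in none of these fits.

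Among the remaining agonists, Il1b lay between 4.44 and 4.92 in WT and between 4.57 and 4.88 in Sfrp1_KO, and Il18 between 4.56 and 5.05 and between 4.63 and 5.04. The IL-36α gene Il1f6 was at 4.15 to 4.30 and 4.24 to 4.42, and Il33, the gene of a nuclear alarmin, at 4.32 to 4.55 and 4.22 to 4.37. Lcn2 was at 4.60, 4.25 and 4.31 in WT and at 4.01, 3.98 and 4.26 in Sfrp1_KO. All of these values were at or under the background level of their array, the groups overlapped for each of the 5 genes, and their adjusted p-values ran from 0.371 (Lcn2) to 0.955 (Il18). At this signal over background a difference in these genes was not detectable, and none is read from them.

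In the RefSeq order of mouse chromosome 2, the IL-36 genes and Il1rn stand together, as Il1f8, Il1f9, Il1f6, Il1f5, Il1f10 and Il1rn, between Tbpl2 and Psd4, with the pseudogenes Gm13410 and Gm13409 among them. Il1f9 and Il1rn were the 2 genes of this family cluster above background in WT. Il1f8 (IL-36β; 4.26 ± 0.28 in WT and 4.16 ± 0.10 in Sfrp1_KO, SD, n = 3), Il1f5 (the IL-36 receptor antagonist; 4.26 to 4.43 and 4.21 to 4.49) and Il1f10 (3.63 to 3.72 and 3.54 to 3.78) were under background on every array. None of these 3 further ligands passed limma, and none did at an unadjusted p under 0.05; the smallest was that of Il1f8 (adjusted p = 0.887). Next to Il1rn, Psd4, an exchange factor for ARF6, was at 5.02, 5.12 and 5.19 in WT and 4.58, 4.54 and 4.76 in Sfrp1_KO, under background on every Sfrp1_KO array, and did not pass (at least 0.04 lower, fitted -0.48, adjusted p = 0.0523). On WT replicate 1 (5.02) Psd4 was under background too. The pseudogene Gm13410, next to Il1f9, was above background on all arrays, at 5.67 ± 0.51 and 5.89 ± 0.42 (SD, n = 3), with overlapping groups.

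**Figure D3:**
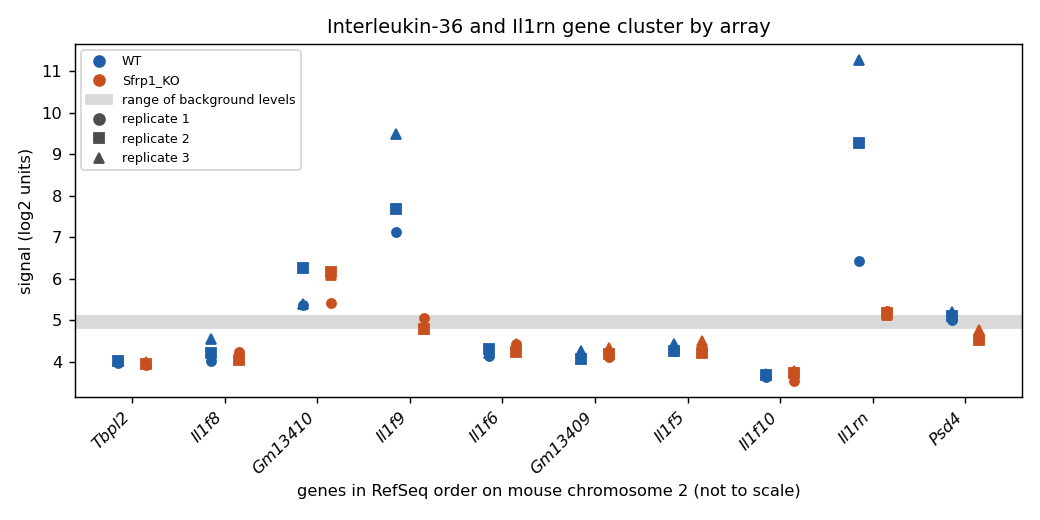
Signal in log2 units on each array (blue WT, orange Sfrp1_KO) for the genes from Tbpl2 to Psd4, in their RefSeq order on mouse chromosome 2 and not to scale, with the range of background levels in grey. Il1f9 and Il1rn stand apart between genotypes, whereas Il1f8, Il1f6, Il1f5 and Il1f10 lie under the grey band in both; levels are to be compared within a gene only.

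The genes whose pattern over the 6 arrays was most like that of Il1f9, among 10795 genes with a mean above background, were Gsta4, a glutathione transferase gene (Pearson r = 0.998), the desmoglein gene Dsg1c (0.998), Dmkn, which encodes dermokine of the differentiating epidermis (0.997), Dsg1b (0.996) and Gm11597 (0.996). These r describe 6 arrays that share the split into 2 genotypes, and the 5 genes are the extreme of many. After each genotype's mean was subtracted the r were 0.976 to 0.991, since WT replicate 3 was the highest array for each of these genes, as for Il1f9. Gsta4, for example, was at 10.46, 11.51 and 14.76 in WT and 6.16, 5.52 and 6.15 in Sfrp1_KO. Dsg1b and Dsg1c are near-identical paralogs whose probes can share signal.

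Other genes of the pathway were read from 6 lists of 111 genes in all, of which 103 were measured. Of these 3 rose, 4 fell and the others did not pass, so 6.80% were called, beside 3.28% of all genes. Their median difference was -0.02. At an unadjusted limma p under 0.05 there were 30 of the 103, beside 4333 of all 30142 genes. Of the 7 called genes S100a4 alone kept its call without moderation and against a minimum difference of 1 log2 unit, and after median centring Pycard and Defb14 did not pass (adjusted p = 0.0523 and 0.0581).

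Among the receptors, coreceptors and decoys none of 13 measured genes passed limma, with 2 higher and 1 lower at an unadjusted p under 0.05, where 4333 of all 30142 genes were. Sigirr, an orphan receptor of the family that dampens IL-1 signalling, had the smallest p. It was at 5.28, 5.26 and 4.98 in WT and 6.75, 6.91 and 5.74 in Sfrp1_KO, so the groups did not overlap (1.30, SE 0.31, adjusted p = 0.0919). It passed without Sfrp1_KO replicate 3, its lowest Sfrp1_KO array (1.66, adjusted p = 0.00754). Il1rl2, the receptor through which IL-36γ acts, was named after its values were seen: 5.69, 6.01 and 5.77 in WT against 5.49, 5.40 and 5.17 in Sfrp1_KO (-0.47, SE 0.13, adjusted p = 0.137). Il1r1, the signalling receptor of IL-1, was near background in both groups, at 5.05 ± 0.06 and 5.16 ± 0.10 (SD, n = 3).

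Of 23 inflammasome and processing genes 2 rose, 2 fell and 19 did not pass, beside 1.83% of all genes that rose and 1.45% that fell. Pycard, the adaptor that joins sensors to caspase-1, fell from 5.91, 6.83 and 6.54 to 5.21, 5.25 and 5.08, just above background (-1.25, SE 0.23, adjusted p = 0.0430). Gsdmc, a pore-forming gasdermin, fell by at least 1.81, from 6.39, 6.79 and 7.44 to values of 4.81, 4.97 and 4.88 that were all under background (adjusted p = 0.0138); it has close paralogs whose probes can share signal. In the other direction, Casp4, the caspase that senses bacterial lipopolysaccharide in the cytosol, rose from 4.60, 4.85 and 4.92 to 5.38, 5.58 and 5.35 (0.65, SE 0.12, adjusted p = 0.0415). Casp4 was above background on only 1 WT array and on all 3 Sfrp1_KO arrays. Gsdmd, the gasdermin these caspases cut, was under background in all WT arrays (4.48, 4.53 and 4.58) and rose by at least 0.28 to 5.37, 5.31 and 5.03 (adjusted p = 0.0254). The last of these values, on Sfrp1_KO replicate 3, was also just under background. Casp1 itself overlapped between the groups, at 6.74 ± 0.37 and 6.11 ± 0.45 (SD, n = 3; adjusted p = 0.367). Casp4 was not called without any 1 of the 6 arrays (adjusted p up to 0.158), Pycard was called only without WT replicate 1 (0.155 at most otherwise), Gsdmd only without Sfrp1_KO replicate 3 (0.120), and Gsdmc was lost only without Sfrp1_KO replicate 1 or 2 (0.0708).

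Among 15 measured signal transducers of these receptors, Traf6, the ubiquitin ligase downstream of the IL-1 receptor kinases, fell by at least 0.19, from 5.18, 5.21 and 5.39 to 4.74, 4.73 and 4.82, under background (adjusted p = 0.0400). It was not called without any 1 array (adjusted p up to 0.167). None rose and the other 14 did not pass, including the adaptor gene Myd88, at 8.13 ± 0.38 and 7.68 ± 0.26 (SD, n = 3; adjusted p = 0.436).

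Of 26 genes that IL-1 or IL-36 induce in epithelia none passed limma, with 3 higher and 5 lower at an unadjusted p under 0.05, again beside 4333 of 30142. The smallest p was that of Cxcl1, a neutrophil chemokine at 5.19, 4.95 and 5.09 in WT and under background at 4.46, 4.73 and 4.51 in Sfrp1_KO (at least 0.0069 lower, fitted -0.51, adjusted p = 0.0720). On WT replicate 2 (4.95) Cxcl1 was under background as well. The list's larger differences, picked after the values were seen, went both ways. Ptgs2, the inducible cyclooxygenase, was at 8.96, 7.28 and 7.52 in WT and 10.10, 10.95 and 9.67 in Sfrp1_KO (2.32, SE 0.51, adjusted p = 0.0777), and it passed without WT replicate 1 (2.84, adjusted p = 0.0285). Il24, a cytokine of the IL-20 group, was at 8.51, 6.14 and 5.50 in WT and under background in Sfrp1_KO, at 4.09, 4.07 and 4.30 (adjusted p = 0.154), and it passed without WT replicate 1 too (-1.66, adjusted p = 0.0239).

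Of 23 measured further alarmins and antimicrobial genes 1 rose and 1 fell, beside 1.83% and 1.45% of all genes. S100a4, a calcium-binding protein with alarmin activity outside cells, rose from 6.94, 6.78 and 7.02 to 11.66, 12.36 and 11.99 (5.09, SE 0.18, adjusted p = 0.000212) and was called without any 1 array. Defb14, a beta-defensin of epithelia, fell from 8.78, 7.52 and 9.26 to 6.08, 6.24 and 5.43 (-2.60, SE 0.46, adjusted p = 0.0375). The defensin kept its call without WT replicate 2 and lost it without any other single array (adjusted p up to 0.120). S100a8 and S100a9, which form calprotectin and were picked after their values were seen, were lower without overlap and did not pass: S100a8 was at 6.01 ± 0.92 in WT and 4.42 ± 0.20 in Sfrp1_KO (SD, n = 3; adjusted p = 0.140), and S100a9 at 6.91, 6.92 and 6.31 and at 5.32, 4.39 and 5.81 (adjusted p = 0.0991).

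**Figure D4:**
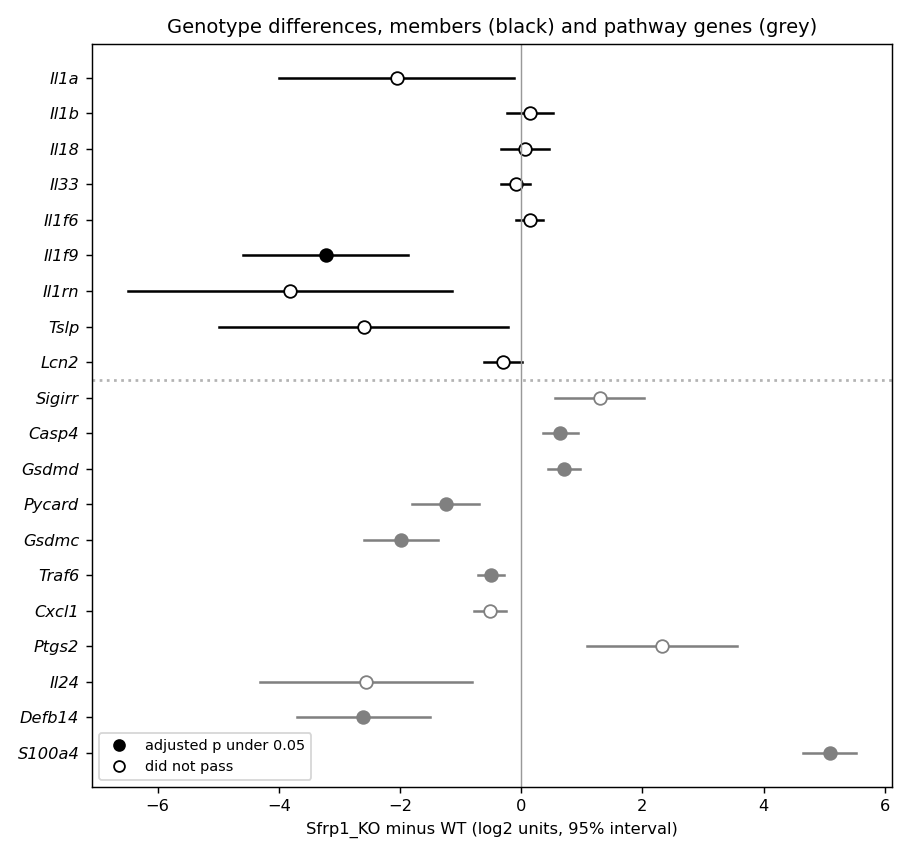
Difference Sfrp1_KO minus WT in log2 units with its 95% interval for the 9 measured members (black) and for pathway genes named in the text (grey); filled points passed limma at adjusted p under 0.05. Il1f9 is the only filled member (-3.23), and the widest intervals are those of Il1rn and Tslp.

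**Figure D5:**
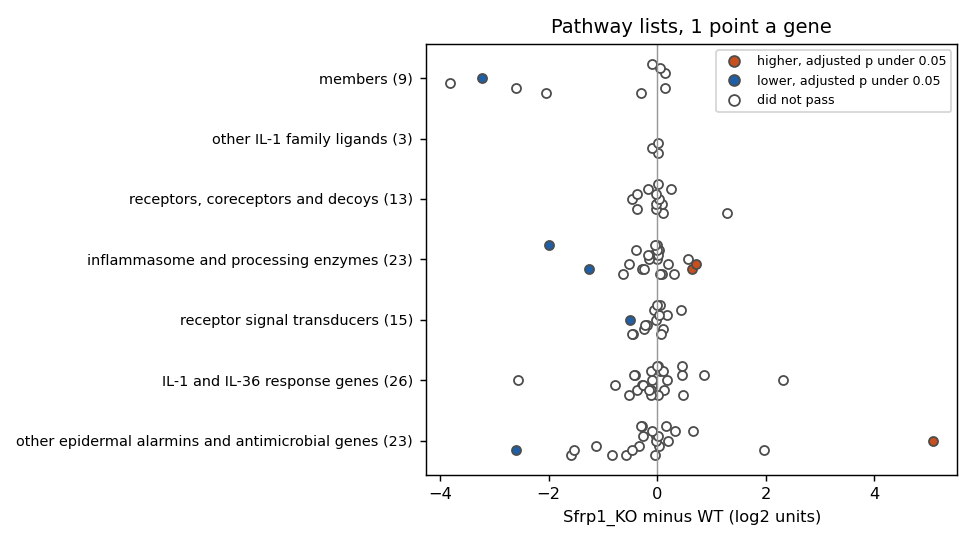
Difference Sfrp1_KO minus WT in log2 units of every measured gene of the members and of the 6 pathway lists, 1 point a gene and the number measured in brackets; colour marks genes called higher (orange) or lower (blue). Most points lie near 0, and S100a4 (5.09) lies farthest to the right.

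Some markers of other cells that make or answer these cytokines also lay apart between the genotypes. Of 14 macrophage and monocyte markers none was called and 10 were higher without overlap (9.1% of all genes were). At or under background on every array were 6 of the 14, with the pan-leukocyte gene Ptprc and, from the 10, Csf1r, Itgam and Mrc1 among them. The mean level of the 14 was 4.56 to 4.65 in WT and 4.87 to 5.45 in Sfrp1_KO. Of 11 neutrophil markers none was called and 5 were lower without overlap, S100a8 and S100a9 among them (10.8% of all genes were). At or under background on every array were 7 of the 11, with Ly6g and Retnlg from the 5 among them. Cxcr2, also of the 5, was above background on 1 WT array only. S100a8 and S100a9 are on the list of epidermal alarmins too, so neither stands for neutrophils alone. The mean of the 11 was 4.64 to 4.92 in WT and 4.08 to 4.45 in Sfrp1_KO. Of 9 fibroblast markers 2 rose and 1 fell (1.83% and 1.45% of all genes did), with means of 5.52 to 6.77 and 6.42 to 7.11. Langerhans and dendritic cell markers had means of 4.44 to 4.61 and 4.43 to 4.47, with Cd207 under background on every array. Mast cell markers were all under background, as were 7 of 8 lymphocyte markers and 4 of 7 endothelial ones. The part of these cells and of the keratinocyte markers in the differences above was not tested.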

How the data were processed

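The deposited table holds log2 signals from the authors; per the submitters' processing notes the tools were RMA and Affymetrix Expression Console. Versions, summarisation level and annotation build: not given in the sources used here. RMA makes arrays alike in distribution, which can hide a change common to most genes. No scanner file or detection flag was used. Groups and replicate numbers came from the sample labels. Nothing in the labels says that replicates were separate animals, and the p-values then reflect only how these samples vary, perhaps technically. Array medians lay between 4.32 and 4.46, and 33.2% to 42.5% of genes stood above background; 3 arrays a group limit precision.

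Of the platform's named features 30604 have 1 symbol and 2146 several, and the latter were not named. Symbols were updated by gene identifier through a RefSeq table (GRCm38.p6), and the feature with the highest mean was kept, leaving 30142 genes with no filter on dim ones. The fit used limma 3.58.1 under R 4.3.3 (lmFit, eBayes, two-sided, Benjamini-Hochberg), and the script was tested on simulated data. A difference is "at least" the given value where all arrays of 1 group lay at or under background. The value is the other group's mean less the mean background level, and it is no lower limit once the spread of the arrays is counted.

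Members and lists were chosen with earlier results of these data known. Named were all members, each list's called genes (up to 4 a direction by size) or else its gene with the smallest p, the 5 genes most like the called member, and Il1rl2, Il1r1, Casp1, Myd88, Ptgs2, Il24, S100a8, S100a9 and the chromosomal neighbours, which were picked after their values were seen. The alternatives were a replicate block, a filter on dim genes, the mean of features, quantile normalization, array weights, trend and robust options, no moderation, a minimum difference of 1 log2 unit, each array left out, and median centring, chosen after seeing the data.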

Additional observations from a re-analysis of the deposited data

How the results depend on the processing

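The labels do not say whether equal replicate numbers pair samples. Deviations of same-numbered arrays from their group means correlated at 0.18, -0.12 and 0.17, and not every array correlated best with its own number. With 3 arrays a group these correlations cannot settle whether the numbers pair samples. With the replicate number as a block 297 genes were higher and 238 lower over all, 0 members were lower (Il1f9 -3.23, adjusted p = 0.0780), and 1 pathway gene was higher (S100a4) and 1 lower (Gsdmc). Under it Casp4, Gsdmd and Traf6 (adjusted p = 0.0863, 0.0862 and 0.0863), Pycard (0.0794) and Defb14 (0.108) were not called. A test without moderation gave 14 and 21 over all, 0 members, and 1 and 0 pathway genes; a minimum difference of 1 log2 unit gave 47 and 37, 0 members, and 1 and 0. After quantile normalization once more 0 members were lower (Il1f9 -3.27, adjusted p = 0.0519). Array weights gave 5 pathway genes higher, and median centring gave 2 lower. With dim genes left out 4 members remained to be tested and their median was -2.91; Il1f9, Il1a and Tslp passed this filter only through WT, so the value says nothing about the members as a whole. With each array left out in turn 191 to 487 genes were higher and 100 to 407 lower, 0 to 2 members were lower, 1 to 5 pathway genes were higher and 0 to 4 lower, and the members' median ranged from -0.39 to -0.19. No member was called higher in any of these fits. Of the 15 genes refitted one by one, 4 were members and 11 pathway genes, and 8 of the 15 were called. Their groups did not overlap, so leaving out 1 array could not change a sign, and none changed where tested. Il18, a member at or under background on every array, went from 0.06 to -0.04 without WT replicate 2 and to -0.05 without Sfrp1_KO replicate 1. Where not stated, the cause of a change was not tested. Signal at background limits 5 of the 9 measured members.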
